A study of Rattus norvegicus with 8 samples.

Results

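Brain capillaries are lined by endothelial cells that are sealed to each other by tight junctions and that carry nutrients in and drugs out through dedicated transporters, which together form the blood-brain barrier. The hypothalamus also holds fenestrated vessels, at the median eminence, where this seal is loose and blood-borne signals reach neurons. THC has to cross these vessels to act in the brain, and the efflux pumps of the endothelium, Abcb1a and Abcg2, keep many lipophilic compounds out of brain tissue. The genes described here are 10 such genes, chosen by their symbols for these roles: the junction and adhesion genes Cldn5, Esam and Pecam1, the vascular growth factor receptors Flt1, Kdr and Tek, the endothelial membrane protein Itm2a, the glucose transporter Slc2a1 and the efflux pumps Abcb1a and Abcg2. All 10 were found among the 18003 gene symbols of the data, with 33 of the 98356 polyadenylation sites.

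Libraries were made from the hypothalamus of adult male Long-Evans rats by whole transcriptome termini site sequencing (WTTS-Seq), in which a read marks the 3′ end of a polyadenylated RNA and hence an alternative polyadenylation (APA) site. The 4 cannabis-exposed rats inhaled vaporized cannabis plant matter (CPM) for 10 min. The 4 air-treated controls went through the same procedure without plant matter. All 8 rats then had no food for 1 hr, until dissection. The labels number the controls 1, 2, 3 and 4 and the cannabis-exposed rats 1, 2, 3 and 5. Values below are listed in that order. Each library was taken as 1 rat, which the labels do not state. A value is a normalized count, which is the reads on a site divided by the size factor of the library, and a gene total is the sum over all sites of a gene symbol. A read marks an end rather than a stretch of a transcript, so that normalized counts need not grow with transcript length. Reads carry no molecular identifiers, and a gene total sums as many sites as the gene has. Levels set beside each other between genes are therefore levels of reads, and how well they follow transcript numbers was not tested.

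Each library had between 1159811 and 3706778 reads on sites. Sites without a read were most frequent in control replicate 4, at 26.1%, and in cannabis replicate 1, at 17.0%, against at most 10.3% in the other libraries. These 2 libraries also deviated from their group means in the same direction across the 12114 genes with a mean of at least 10 normalized counts (correlation across genes 0.49, the highest of all pairs of a control and a cannabis library; genes are not independent replicates). Hypothalamic peptide genes were read in every library, among them Avp, Oxt, Hcrt and Pmch. Of these, Avp had a mean of 1952 ± 996.1 normalized counts in controls and 4934 ± 1383 in the cannabis group (SD, n = 4).

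The barrier genes were thinly read. Together the 10 genes held 3982 of 20734916 reads, or 0.0192%, and Itm2a alone held 46.6% of these 3982 reads. Their median level, 21.2 normalized counts, was near the median of all gene symbols, 23.5. Averaged over the 8 libraries, the order was Itm2a at 196.5 ± 60.1 normalized counts (SD, n = 8), Flt1 at 83.3 ± 16.3, Abcg2 at 55.4 ± 17.8, Abcb1a at 37.9 ± 14.6, Kdr at 21.9 ± 3.98 and Slc2a1 at 20.5 ± 5.64. Below them lay Pecam1 at 7.38 ± 4.01, Tek at 6.63 ± 4.13, Cldn5 at 5.28 ± 4.54 and Esam at 1.70 ± 1.86. Itm2a was the only gene whose range lay wholly above that of the next gene in this order. Every other neighbour overlapped, although Slc2a1 exceeded Pecam1 in all 8 libraries and Flt1 exceeded Abcg2 in 7 of 8. The endothelial label therefore rests on few reads for its best known junction marker, as Cldn5 lay at the 20.9th percentile of all gene symbols and Esam at the 0.905th. Itm2a lay at the 89.4th. The study kept only sites that reached a cutoff of reads, so symbols without such a site are not among those ranked.

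**Figure D1:**
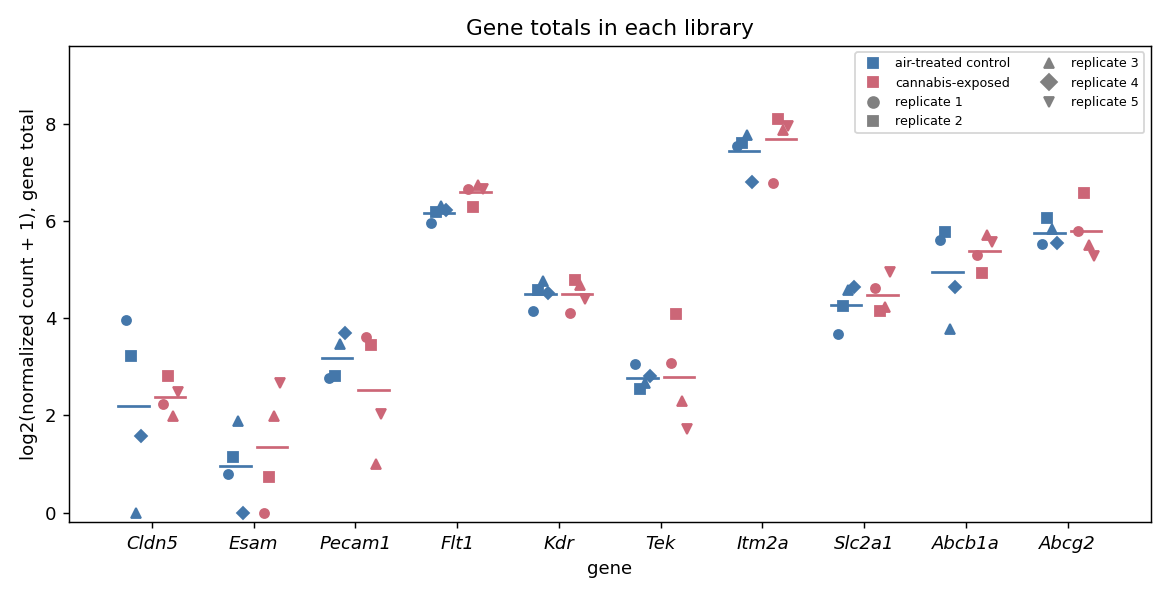
Level of each of the 10 genes in each library, as log2(normalized count + 1) of the gene total on the vertical axis, with air-treated controls in blue, cannabis-exposed rats in red, a symbol for each replicate number and a bar at the group mean. Itm2a sits at the top, its lowest values are control replicate 4 (111.2 normalized counts) and cannabis replicate 1 (109.3), and the groups overlap for all 10 genes.

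To determine whether cannabis inhalation changed the endothelial and barrier transcripts, cannabis-exposed rats were compared with air-treated controls by gene total. None of the 10 genes passed P under 0.01 in limma, and none passed P under 0.05. In the whole fit 50 of 18003 gene symbols, or 0.278%, passed P under 0.01, and 433, or 2.41%, passed P under 0.05. Those under 0.01 were 18 symbols, 0.1%, with higher and 32, 0.178%, with lower levels after cannabis, against 0 of the 10 genes in either direction. If no gene had changed, about 180 symbols would be expected under 0.01, more than the 50 that passed. Only 1 symbol had an adjusted P under 0.1 in limma. The count tests edgeR and DESeq2 on the recovered reads also called 0 of the 10 genes at either threshold, where 0.3% and 0.423% of all symbols tested passed P under 0.01. Adjusted P in limma was 0.999 for each of the 10. The estimate was positive for 8 genes and negative for 2, with a median log2 fold change of 0.19, beside 0.053 over all gene symbols. The groups overlapped for all 10 genes, and for all but 1.98% of all gene symbols. In bulk tissue, a change in endothelial cell number and a change in RNA per endothelial cell cannot be told apart.

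**Figure D2:**
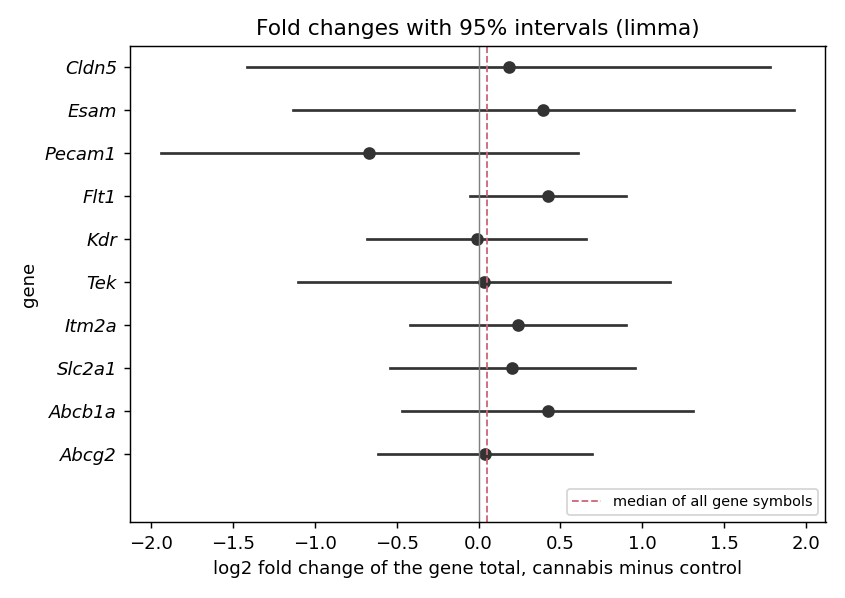
Log2 fold change of each gene total, cannabis minus control, as points with 95% confidence intervals from limma, with a dashed line at the median of all gene symbols (0.053). Every interval includes 0, and the narrowest belongs to Flt1, from -0.053 to 0.90.

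Flt1 encodes VEGF receptor 1, which binds VEGF-A tightly and restrains its signal, and it came closest to the threshold. Controls had 60.7, 71.8, 77.9 and 73.5 normalized counts, and cannabis-exposed rats had 100.6, 77.1, 105.3 and 99.8. Only cannabis replicate 2 reached into the range of the controls. The mean was 71.0 ± 7.32 in controls and 95.7 ± 12.7 in the cannabis group (SD, n = 4), and the log2 fold change came to 0.42 (standard error, SE, 0.22, P = 0.0775 in limma and 0.0571 in the exact permutation test, adjusted P = 0.999 in limma). The exact test is two-sided over 70 splits and cannot go below 0.0286. The 95% interval ran from a 0.964-fold to a 1.86-fold level. The variance of the Flt1 reads within groups was 1.66 times that of counting alone.

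Kdr and Tek, the other receptors, had close means or a wide spread. Kdr encodes VEGF receptor 2, which carries most of the growth signal of VEGF-A. Controls had 16.8, 22.7, 26.2 and 21.8 normalized counts of Kdr, against 16.1, 26.6, 24.6 and 19.97 in cannabis-exposed rats. The groups covered nearly the same range, and the log2 fold change came to -0.012 (SE 0.31, P = 0.969 in limma and 0.971 in the exact permutation test, interval -0.68 to 0.66). The variance of the Kdr reads within groups was 1.00 times that of counting alone. Tek encodes the angiopoietin receptor Tie2, which keeps vessels quiescent. It had 7.31, 4.79, 5.37 and 5.96 normalized counts in controls and 7.45, 15.9, 3.94 and 2.30 after cannabis. The cannabis values enclosed those of the controls, with a log2 fold change of 0.033 (P = 0.951 in limma and 0.943 in the exact permutation test, interval -1.10 to 1.17). Its highest value, in cannabis replicate 2, came from 24 reads, and that replicate also had the most Abcg2 and Itm2a.

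Itm2a is an integral membrane protein enriched in brain endothelium and also made by some T cells. It had a single site. Controls had 186.4, 193.9, 218.2 and 111.2 normalized counts, and cannabis-exposed rats had 109.3, 274.3, 232.2 and 246.6. The 2 low values came from the 2 libraries with the largest shares of unread sites. The mean was 177.4 ± 46.2 in controls and 215.6 ± 73.0 in the cannabis group (SD, n = 4), and the log2 fold change came to 0.24 (SE 0.31, P = 0.444 in limma and 0.486 in the exact permutation test, interval -0.42 to 0.90). Without control replicate 4 alone the log2 fold change was 0.032, without cannabis replicate 1 alone it was 0.54, and with replicate number blocked it was -0.059. With both libraries left out, an alternative chosen after the data were seen, the controls ranged from 186.4 to 218.2 and the cannabis-exposed rats from 232.2 to 274.3. It was then 0.33, which did not pass P under 0.05 in limma, and the groups no longer overlapped, which held for 8.77% of all gene symbols in the same 6 libraries. Among the 10 genes Itm2a was the only one without overlap there. The variance of the Itm2a reads within groups was 14.8 times that of counting alone.

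The transporters were read at middling levels. Slc2a1 encodes GLUT1, the main route of glucose across the barrier, and is also made by astrocytes. Its gene total was 11.7, 18.0, 22.8 and 23.8 normalized counts in controls and 23.6, 16.6, 17.7 and 30.0 in cannabis-exposed rats. The groups interleaved, and the log2 fold change came to 0.20 (SE 0.35, P = 0.567 in limma and 0.571 in the exact permutation test, interval -0.54 to 0.95). Abcb1a encodes the pump P-glycoprotein. Controls had 47.5, 53.9, 12.8 and 23.8 normalized counts of Abcb1a, against 38.5, 29.2, 51.2 and 46.1 in cannabis-exposed rats. The controls fell on both sides of the cannabis-exposed rats, and the log2 fold change came to 0.42 (SE 0.41, P = 0.324 in limma and 0.514 in the exact permutation test, interval -0.47 to 1.31). Without control replicate 3, the lowest library, it was 0.033, and without control replicate 2, the highest, it was 0.70. Abcb1b, the close paralog with which reads could be shared, had 3.48 ± 1.71 and 4.01 ± 2.39 normalized counts (SD, n = 4) in controls and cannabis-exposed rats.

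Abcg2, the breast cancer resistance protein, is the second major efflux pump of brain capillaries. It had 45.3, 65.8, 56.4 and 45.7 normalized counts in controls and 54.6, 93.7, 44.3 and 37.6 in cannabis-exposed rats. Both the highest and the lowest library were cannabis-exposed, and the log2 fold change came to 0.038 (SE 0.30, P = 0.903 in limma and 1.00 in the exact permutation test, interval -0.62 to 0.69). The variance of the Abcg2 reads within groups was 8.09 times that of counting alone, and that of the Abcb1a reads 7.91 times.

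The junction and adhesion genes were close to the limit of detection. Cldn5 encodes claudin-5, the principal tight junction strand protein of brain endothelium, and had 20, 7, 0 and 1 reads in controls and 3, 9, 3 and 6 in cannabis-exposed rats. The normalized counts were 14.6, 8.38, 0 and 1.99 against 3.73, 5.98, 2.95 and 4.61, so that the controls spanned a wider range than the cannabis-exposed rats and enclosed it. For control replicate 3, a count of 0 allows up to 3 reads, or 2.01 normalized counts. The mean of Cldn5 was lower in cannabis-exposed rats (4.32 ± 1.30 against 6.25 ± 6.63, SD, n = 4), while the log2 fold change, which weights the low controls, was 0.19 (P = 0.807 in limma and 0.886 in the exact permutation test, interval -1.41 to 1.78). In edgeR and DESeq2 on the recovered reads it was -0.61 in both. Its direction was therefore not determined, and a 3.44-fold increase as well as a fall to 0.376-fold lay within the interval.

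Pecam1 encodes the endothelial adhesion molecule CD31 and had 5.85, 5.99, 10.1 and 11.9 normalized counts in controls and 11.2, 9.96, 0.984 and 3.07 in cannabis-exposed rats. Replicates 3 and 5 of the cannabis-exposed rats lay below every control, and the log2 fold change came to -0.67 (SE 0.59, P = 0.279 in limma and 0.371 in the exact permutation test, interval -1.94 to 0.61). The log2 fold change of Pecam1 was -0.16 without cannabis replicate 3 and -1.03 without cannabis replicate 1. Esam encodes an adhesion molecule of endothelial tight junctions and had 17 reads in all, at most 7 in a library, with none in control replicate 4 and cannabis replicate 1. No difference in Esam was detectable at this depth (log2 fold change 0.40, P = 0.587 in limma and 0.629 in the exact permutation test, interval -1.13 to 1.93).

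Summed over the 10 genes, controls held 319.7 to 446.5 normalized counts and cannabis-exposed rats 365.1 to 550.0. Without Itm2a the sums ran from 208.5 to 252.6 in controls and from 248.9 to 275.7 in cannabis-exposed rats. These ranges overlapped, and the means were 221.5 in controls and 258.6 in cannabis-exposed rats. Most of this difference in means came from Flt1, whose group means differed by more than those of any other gene but Itm2a. No test was made of these sums.

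APA of these genes was examined next, by the counts at each site and by the share of a gene's counts that its main site held. Among the sites that reached the read cutoff of the study, Cldn5, Esam, Tek and Itm2a each had 1. The other 6 genes had more than 1. Flt1 had 9 sites, Abcg2 had 7, Abcb1a had 5, Slc2a1 had 4, and Kdr and Pecam1 had 2 each. A member site had a median of 43 reads over the 8 libraries, with a range from 17 to 1856. None of the 33 sites passed P under 0.01 in limma, where 375 of 98356 sites, or 0.381%, did (0.123% higher and 0.258% lower after cannabis). If no site had changed, about 984 would be expected, more than the 375 that passed. Of all sites, 1 had an adjusted P under 0.1 in limma. A single site passed P under 0.05, beside 3.03% of all sites, and edgeR and DESeq2 on the recovered reads called 0 of the 33 at either threshold, where 0.526% and 0.316% of all sites tested passed P under 0.01. The estimate was positive at 20 sites and negative at 13, with a median log2 fold change of 0.19 beside 0.013 over all sites.

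**Figure D3:**
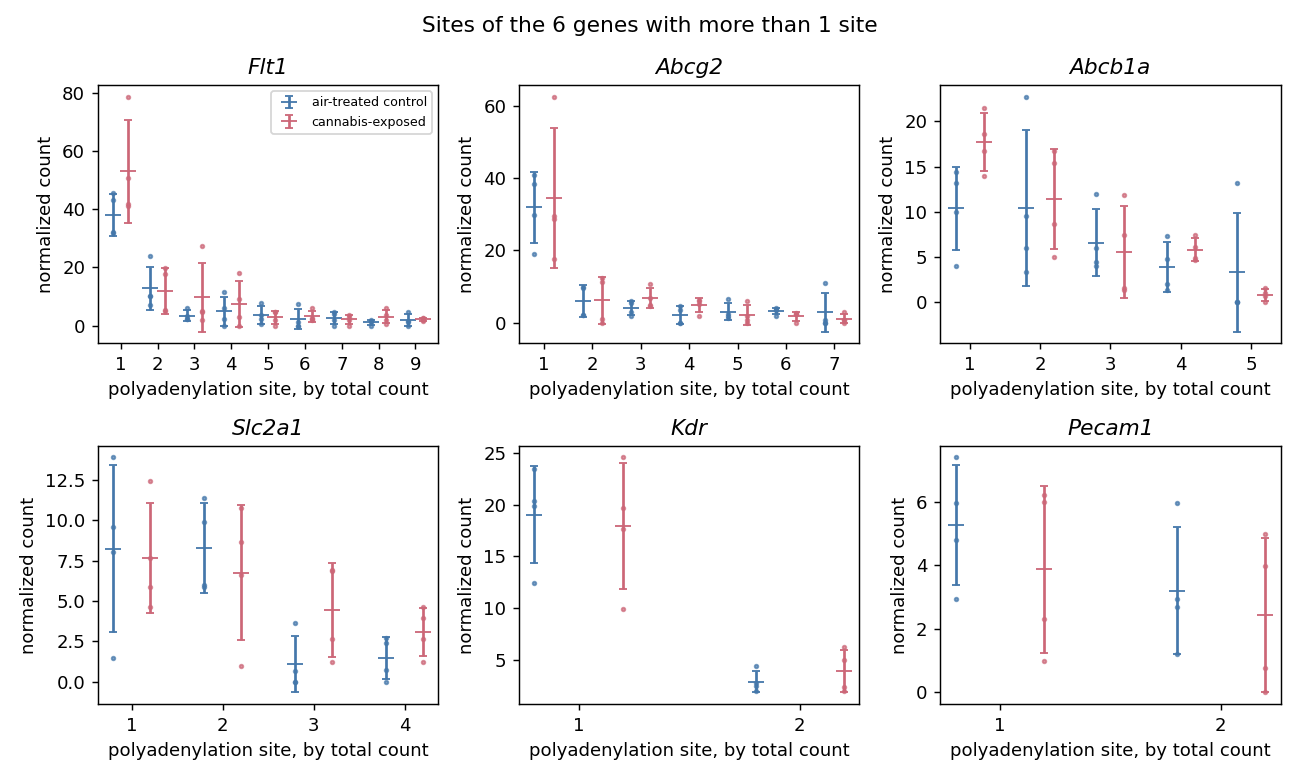
Normalized counts at each polyadenylation site of the 6 genes with more than 1 site, numbered from the site with the most counts, with points for libraries and bars for the mean and SD (n = 4) in air-treated controls (blue) and cannabis-exposed rats (red). Flt1, Abcg2 and Kdr are dominated by their first site, whereas the first 2 sites of Slc2a1 are level, and the groups overlap at all 33 member sites.

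The first Flt1 site had 38.2 ± 7.24 normalized counts in controls and 53.1 ± 17.7 in the cannabis group (SD, n = 4), with a log2 fold change of 0.43 (P = 0.269 in limma and 0.171 in the exact permutation test). It held 53.7% ± 7.61 of the Flt1 total in controls and 55.1% ± 14.3 in the cannabis group (SD, n = 4; exact permutation test, P = 0.914). The share of this site differed by less than the spread between rats. A shorter, soluble Flt1 protein that traps VEGF-A is known to be made by polyadenylation within an intron. The positions of the Flt1 sites were not used here, so none of the 9 can be assigned to it. The third Flt1 site drew 51.8% of its counts from 1 library, cannabis replicate 1.

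At Abcb1a, the first site had 13.2, 14.4, 4.03 and 9.93 normalized counts in controls and 18.6, 13.9, 16.7 and 21.5 in cannabis-exposed rats. Only cannabis replicate 2 fell below a control, and the log2 fold change came to 0.82 (SE 0.48, P = 0.101 in limma; exact permutation test, P = 0.0571). As a share of the Abcb1a total, this site held 31.9% ± 6.85 in controls and 43.9% ± 7.48 in the cannabis group (SD, n = 4). The exact permutation test gave P = 0.0571, or 0.343 after Benjamini-Hochberg adjustment over the 6 genes. The fifth and least read Abcb1a site had 80.5% of its counts in control replicate 1, and the seventh Abcg2 site had 68.4% there.

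The single site under P of 0.05 was the third Slc2a1 site, named after its value was seen. It had 3.66, 0, 0.671 and 0 normalized counts in controls and 1.24, 2.66, 6.89 and 6.91 in cannabis-exposed rats, from 27 reads in all. Its log2 fold change came to 1.51 (SE 0.69, P = 0.0387 and adjusted P = 1.00 in limma; exact permutation test, P = 0.0857). The 2 sites of Slc2a1 with the most counts, which held 38.8% and 36.7% of its counts, had log2 fold changes of 0.093 and -0.48 (P = 0.875 and 0.419 in limma, and 0.943 and 0.600 in the exact permutation test).

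Main site shares of the other genes also did not pass the exact permutation test. Kdr used its first site for 86.0% ± 8.09 of counts in controls and 80.6% ± 13.7 in cannabis-exposed rats (P = 0.629, exact permutation test). Abcg2 used its first site for 59.2% ± 11.8 and 58.1% ± 10.1 (P = 0.943, exact permutation test). The shares were 39.9% ± 20.8 and 34.9% ± 12.3 for Slc2a1 (P = 0.686, exact permutation test), and 63.3% ± 15.6 and 72.6% ± 20.05 for Pecam1 (P = 0.429, exact permutation test).

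The rest of the vascular compartment was described by 5 further lists, of which 68 of 80 genes were listed in the files. In limma 0 of the 68 passed P under 0.01, beside 0.278% of all gene symbols, and 5 passed P under 0.05, beside 2.41%. Their median log2 fold change was 0.068, with 39 positive and 29 negative estimates. At P under 0.01, edgeR and DESeq2 on the recovered reads each called 1 gene of the 68, Bsg, beside 0.3% and 0.423% of all symbols tested in these fits. By list, the median log2 fold change was 0.24 for junction and adhesion genes (10 measured), 0.045 for other barrier transporters (18), -0.069 for other endothelial markers (17), -0.0039 for vascular ligands and coreceptors (11) and 0.32 for pericyte and smooth muscle genes (12).

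Bsg encodes basigin, which escorts the monocarboxylate transporter Slc16a1 to the endothelial surface and is made by neurons and glia too. It had the most counts of the transporter list, with 266.8, 378.3, 226.3 and 214.5 normalized counts in controls and 486.8, 239.1, 854.1 and 728.9 in cannabis-exposed rats. Cannabis replicate 2 lay within the controls and the others above them. The log2 fold change came to 0.97 (SE 0.34, P = 0.0141 in limma and 0.0857 in the exact permutation test, adjusted P = 0.999 in limma), with P = 0.00782 in edgeR and P = 0.00499 in DESeq2. In limma P was 0.0924 when replicate number was blocked, 0.00974 without control replicate 2, 0.000238 without cannabis replicate 2 and 0.0565 without cannabis replicate 3. Slc16a1 itself had 44.9 ± 17.6 and 42.5 ± 14.9 normalized counts in the control and cannabis groups (SD, n = 4).

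The other 4 genes under P of 0.05, named after their values were seen, were the endothelial adhesion molecule Icam2, the endothelial and progenitor sialomucin Cd34, the endothelial transcription factor Fli1 and the pericyte proteoglycan Cspg4, which oligodendrocyte precursors also make. Fli1 had 5.60 ± 4.95 normalized counts in controls and 14.8 ± 5.76 in cannabis-exposed rats, Cd34 3.43 ± 2.201 and 11.2 ± 6.004, Icam2 3.29 ± 2.25 and 9.01 ± 4.35, and Cspg4 23.0 ± 5.94 and 12.9 ± 4.18 (SD, n = 4). Their P in limma ran from 0.0207 for Cd34 to 0.0442 for Cspg4, and adjusted P was 0.999 for each.

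Among genes of the receptors' ligands, Vegfa had the most counts, with 214.4 ± 29.1 normalized counts in controls and 230.1 ± 73.4 in the cannabis group (SD, n = 4; log2 fold change 0.060, P = 0.805 in limma and 0.8 in the exact permutation test). Angpt1, the activating ligand of Tek, had 97.1 ± 31.8 and 73.5 ± 13.3 (log2 fold change -0.36, P = 0.209 in limma and 0.229 in the exact permutation test). In the other lists the genes with the most counts were Tjp1, a junction scaffold (99.5 ± 2.91 and 113.8 ± 22.2 normalized counts), Sparc, a matrix protein that astrocytes make as well (5503 ± 522.3 and 6151 ± 1074), and Rgs5, a pericyte marker (90.8 ± 68.5 and 107.4 ± 51.7). None of these 3 passed P under 0.01 in limma.

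**Figure D4:**
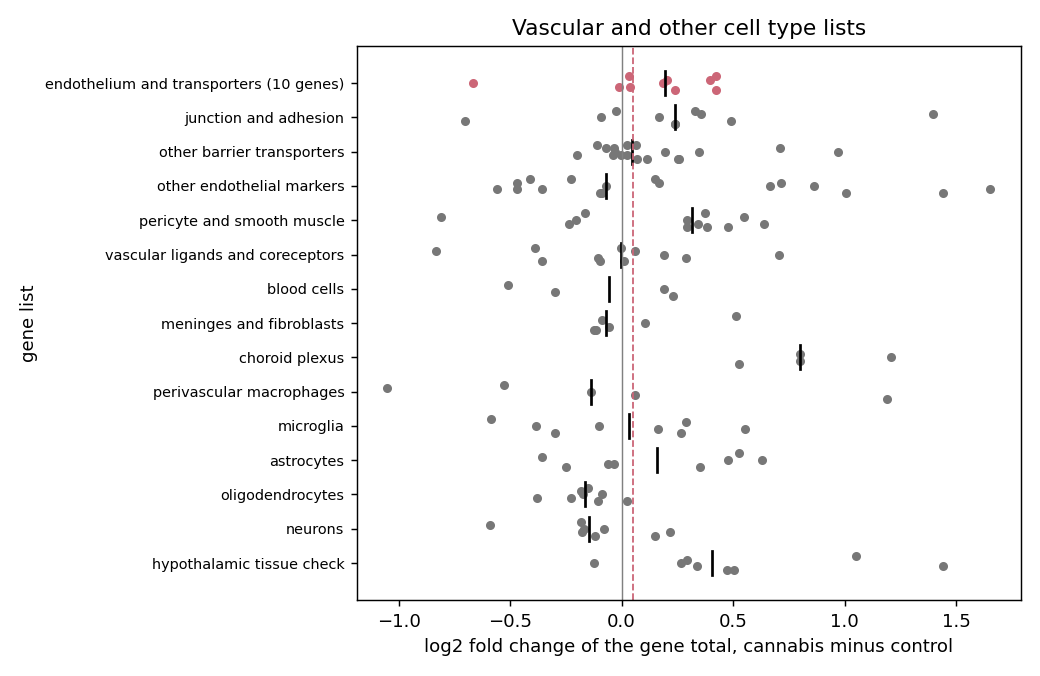
Log2 fold change of the gene total, cannabis minus control, for each measured gene of the endothelium and transporter set (red) and of 14 further lists (grey), with a black bar at the median of each list and a dashed line at the median of all gene symbols. The 10 endothelial genes lie between -0.67 and 0.42, and Avp and Oxt of the tissue check are the only genes shown with P under 0.01 in limma.

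Other cells that share these transcripts or the dissection were followed with 9 lists, of which 59 genes were measured. Among them 2 passed P under 0.01 in limma, Avp and Oxt, both higher in cannabis-exposed rats. In the same fit none of the blood cell, meningeal, choroid plexus, macrophage, microglial, astrocyte, oligodendrocyte or neuronal genes did. Of 12 blood cell genes listed, 4 were measured, led by the haemoglobin genes Hba1 and Hba2. They summed to between 798.5 and 1339 normalized counts in controls and between 866.4 and 1262 in cannabis-exposed rats. Genes of astrocytes, which also make Slc2a1, summed to between 7586 and 9529 in controls and between 8461 and 10425 in cannabis-exposed rats. Of 7 choroid plexus genes listed, 4 were measured. These 4 summed to at most 43.8 in any library, and their median log2 fold change was 0.80. The sum leaves out the listed genes that were not measured. The part of these cells in the values of the 10 genes was not tested.

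The gene symbols whose levels across the 8 libraries were most like the mean standardized level of the 10 genes were G3bp1, Serp1, Nova1, Glo1 and Inppl1, among 6101 symbols with a mean of at least 50 normalized counts. They were picked for this likeness, so their correlations, with Pearson's r from 0.93 to 0.97 over 8 libraries, are given without a test. None of the 5 belongs to the vascular or cell type lists. The 10 genes followed their own mean unevenly, with Pearson's r from -0.14 for Pecam1 to 0.70 for Itm2a. It was 0.038 for Slc2a1, 0.12 for Abcb1a and 0.65 for Abcg2.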

How the data were processed

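WTTS-Seq libraries of 8 hypothalami were used, 4 per group, with groups taken from the labels. The authors trimmed and filtered the reads, aligned them to Rnor_6.0, clustered 3′ ends into sites, assigned sites to genes and divided the counts by DESeq2 size factors. The deposited signal is this normalized count per site with a gene symbol, without site coordinates. Every value was a whole number of reads within a tolerance of 0.001 once divided by the value of 1 read, so that reads could be recovered. A read was worth 0.664 to 1.99 normalized counts, and 3 reads, the limit that a count of 0 allows, 1.99 to 5.96. Such limits cover counting error only, since reads carry no molecular identifiers.

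Sites were summed by symbol into 18003 gene totals. The main test was limma 3.58.1 (R 4.3.3), with a mean-variance trend, on log2(normalized count + 1) over all gene totals or all 98356 sites. No further filter was applied. The study had kept only sites that reached a cutoff of reads, so that sites with fewer reads are missing from gene totals and site numbers. A call was P under 0.01, the threshold of the study, with Benjamini-Hochberg adjusted P beside it. Fold changes are on this log2 scale. For low genes they depend on the added 1 and can be smaller or larger than in the count tests. Esam was 0.40 in limma and 0.70 in edgeR, and Pecam1 was -0.67 in limma and -0.46 in edgeR. Exact permutation tests (two-sided, 70 splits) were run on the log2 values of single genes and sites and on site shares. Alternatives were other pseudocounts (0.5 and 5), a filter at a mean of 10, equal library totals, no trend, a block for replicate number, omission of each library, P under 0.05, the second site in place of the first, and edgeR 4.0.16 and DESeq2 1.42.0 on recovered reads. Omission of the 2 libraries with the most unread sites was chosen after seeing the data. The limma fit was tested on simulated data, with 200 genes of a mean of at least 20 changed and a fixed dispersion of 0.05. It found 82% of log2 fold changes of 1 in size and 100% of those of 2. Changes in genes of lower mean, such as Cldn5, Esam, Pecam1 and Tek, were not simulated, nor was a wider spread.

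The text names all 10 genes, the site with the most counts of each, and list genes with P under 0.01. Also named are the gene with the most counts of most lists and the 5 symbols most like the mean level of the 10 genes. Others are named as chosen after their values were seen, or as ligands, partners or paralogs. The 10 genes and the lists were chosen with earlier results of these data known. The labels number the replicates and say no more of them. That each library is a separate rat was assumed.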

Additional observations from a re-analysis of the deposited data

Results flagged for a closer look

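Of 32 groups of 4 values checked, 2 had a library far from the others, where chance gives about 1 in 20. Both were shares of the main polyadenylation site. In control replicate 1 the first Kdr site held 73.9% of the Kdr counts, against 89.5% to 90.9% in the other controls. In cannabis replicate 3 the first Abcb1a site held 32.7% of the Abcb1a counts, against 46.7% to 48.4% in the other cannabis-exposed rats. The Kdr total of control replicate 1 rested on 23 reads and the Abcb1a total of cannabis replicate 3 on 52.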

How the results depend on the processing

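None of the 10 genes passed P under 0.01 under any alternative run. Of 166 fold changes under alternatives 142 kept their direction and 24 changed sign, and the lowest P was 0.0451, for Flt1 without cannabis replicate 2. Flt1 and Pecam1 kept their direction throughout, as did Abcb1a. Cldn5 turned to -0.081 with a pseudocount of 5, to -0.61 in edgeR and to -0.61 in DESeq2. With both sparse libraries left out, chosen after seeing the data, Kdr was 0.12, Tek -0.050 and Abcg2 -0.034. Leaving out 1 library at a time gave log2 fold changes from -0.55 to 0.78 for Cldn5, -0.13 to 0.12 for Kdr, -0.40 to 0.39 for Tek, -0.046 to 0.84 for Esam, -0.00034 to 0.32 for Slc2a1, -0.22 to 0.21 for Abcg2, 0.032 to 0.54 for Itm2a, -1.03 to -0.16 for Pecam1, 0.033 to 0.70 for Abcb1a and 0.35 to 0.52 for Flt1. The cause was not tested. Cldn5, Esam, Pecam1 and Tek fell under the mean of 10 and were not tested with that filter.

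The 50 gene totals called became 29 with a mean of at least 10, 98 without the trend, 76 in DESeq2 and 433 at P under 0.05, and 30 to 90 with 1 library left out (30 without control replicate 1, 31 without cannabis replicate 5, 84 without control replicate 3, 90 without cannabis replicate 1). They split into 18 higher and 32 lower, and this balance depended on the setting: 12 and 42 in edgeR, 12 and 64 in DESeq2, 9 and 66 without cannabis replicate 2, but 51 and 47 without the trend, 236 and 197 at P under 0.05, 49 and 35 without control replicate 3, 31 and 30 without cannabis replicate 3 and 15 and 15 without control replicate 1. The 375 sites became 44 with a mean of at least 10 and 2981 at P under 0.05, and 227 to 617 with 1 library left out (227 without cannabis replicate 5, 231 without control replicate 1, 594 without cannabis replicate 1, 617 without control replicate 3). Their split of 121 higher and 254 lower turned to 141 and 90 without control replicate 1. Member sites went from 0 to 1 at P under 0.05. Vascular list genes went from 0 to 1 in edgeR, 1 in DESeq2 and 5 at P under 0.05, and ranged from 0 to 2 with 1 library left out (Bsg and Fli1 without control replicate 2, Bsg without cannabis replicate 2, Cd34 without cannabis replicate 3). The other lists went from 2 to 1 without the trend, and ranged from 1 to 2 with 1 library left out (1 without control replicate 2 or cannabis replicate 2). With both sparse libraries left out they were 3, Avp and Oxt higher and the oligodendrocyte gene Mog lower.

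Same-numbered libraries deviated together with correlations from -0.23 to 0.089 across 12114 genes, over 3 pairs, and 0 of 6 libraries correlated best with their own number, so the numbers were not read as pairs. With the replicate number as a block, 24 gene totals, 229 sites and 1 gene of the other lists were called. The block turned Cldn5 to -0.056, Kdr to 0.025, Esam to -0.36 and Itm2a to -0.059. Member sites had 17 to 1856 reads over the 8 libraries, and Esam, with 17, and Cldn5, with 49, rest on few.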
